A study of Mus musculus with 36 samples.

Results

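Open chromatin at day 7 of direct cardiac reprogramming was compared with that at days 2-3, to see what moved within the first week. In this procedure heart fibroblasts are pushed towards heart muscle by delivered transcription factors, and cells that switch on a heart muscle reporter are called induced cardiomyocytes. The comparison holds 9 libraries, 3 of day 7 against 3 of day 2 and 3 of day 3, chosen by the labelled day alone out of 18 libraries with a column in the deposited count table. The assay was ATAC-seq, in which a transposase cuts open DNA and leaves sequencing adapters there, so that reads pile up where chromatin is accessible.

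All 9 libraries came from neonatal hearts of Cd-1 mice with the genotype alpha-MHC-GFP. Thy1-positive, GFP-negative cells that had grown out of explants, mostly fibroblasts per the labels, received retroviruses for Gata4, Mef2c and Tbx5 (GMT). The culture medium held an inhibitor of TGF-beta signalling, sb431542, and an inhibitor of the Wnt pathway, xav939. GFP-positive cells were collected on the day of harvest. Both sides of the comparison therefore share the genotype, the factors, both inhibitors and the sort, and differ in the day. Because the reporter runs on the promoter of Myh6 (alpha-MHC), each library holds only cells in which that promoter was active, and a change within cells and a change in which cells lit up cannot be told apart. The groups set beside the comparison were GMT cells with both inhibitors, sorted for GFP at day 14 and day 21, and control cells given a dsRed retrovirus and no inhibitor and sorted for dsRed at day 7, each with 3 libraries. The control is thus no earlier time point. Replicates are labelled biological, but no label ties a library to a heart, a litter or one of the sequencing cores, so an effect of the core was not tested.

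Gata4 and Mef2c are DNA-binding factors of heart development that act at enhancers of muscle genes together with the T-box factor Tbx5. Accessible sites are mostly promoters and enhancers from which nucleosomes have been displaced, and in reprogramming they tend to open at heart genes and close at fibroblast genes. TGF-beta and Wnt signalling are known to hold this conversion back.

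The table as used covers chromosomes 1, 10 to 16 and chromosome 17 up to 79.1 Mb, in mm9 coordinates. Tbx5 and every gene on other chromosomes are thus outside it. Levels below are CPM, counts per 1000000 of a library size scaled by the trimmed mean of M-values (TMM). The region with the most counts in each library took between 4.52 and 35.4% of counts in the 9 libraries compared, and up to 49.4% in a fibroblast library. Library totals were 2.29 to 23.2 M counts at days 2-3 and 10.5 to 16.4 M at day 7. Day 2 replicate 1 and day 3 replicate 1, the shallowest at 2.29 and 2.95 M, stood apart from the rest. On the first principal component of the 9 libraries (32.9% of variance) they scored -236.3 and -221.4, and the other 7 scored up to 80.3, all above 0. Counts of changed peaks are therefore given with and without them.

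Between days 2-3 and day 7, 362 of 144810 tested peaks rose and 126 fell, which is 0.337% of peaks in all, 0.25% higher and 0.087% lower. Most peaks thus had no detectable change over these days. The risers went up by a median of 1.20 on the log2 scale, in a range from 0.90 to 2.41. The falling peaks had a median log2 fold change of -1.42, and the range from -3.62 to -0.96 reached further than that of the risers. Only 5 peaks rose 4-fold or more, against 24 that fell as far. Of the risers, 318 had all 3 day 7 libraries above all 6 early ones, as had 4.77% of all peaks. Of the falling peaks, 110 had all 3 below, as had 2.26% of all peaks. A peak was called at an adjusted p under 0.05 in edgeR's quasi-likelihood test, and 17600 peaks (12.2%) had an unadjusted p under 0.05. The peaks nearest the threshold lay at adjusted p 0.0499 inside it and 0.0504 outside it, with log2 fold changes of 1.23 and 0.95.

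How many peaks passed depended on single libraries and on what else entered the fit. Leaving out replicate 3, 2 or 1 of day 7 turned the 488 calls into 84, 99 or 309. Leaving out replicate 3, 2 or 1 of day 2 gave 179, 294 or 760, and for day 3 the counts ran from 338 to 647. A fit of the 9 libraries alone called 84 peaks, one of the 15 GMT libraries 251, and one with no filter on low counts 15. Without both libraries that stood apart, 1098 peaks rose and 375 fell. The share of risers depended on the scaling. It was 74.2% of calls with TMM, 71.0% with RLE size factors, 56.4% with a normalization that follows the level of the peak, and 4.26% with library totals alone (4 higher, 90 lower). The median log2 fold change over all tested peaks was -0.0066 with TMM but -0.29 with library totals. Rises and falls were counted by the sign of the log2 fold change under each scaling. Only window medians were also set against the median of all peaks. With a higher minimum count of 30, 193 peaks rose and 198 fell.

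**Figure D1:**
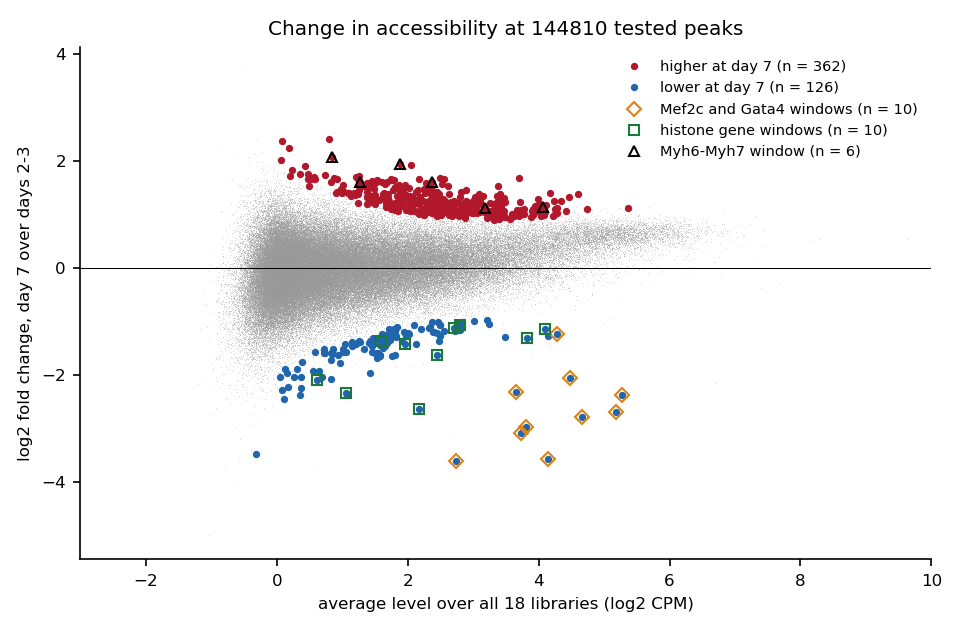
Each point is a peak, with its average level over all 18 libraries on the x axis (log2 CPM) and its fitted log2 fold change of day 7 over days 2-3 on the y axis. Red points are the 362 peaks called higher and blue ones the 126 called lower. Called peaks in the Mef2c and Gata4 windows form the lower right of the plot, those of the histone gene windows lie nearer to the other falls, and the 6 of the Myh6-Myh7 window lie among the rises.

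Calls were rarest among peaks with few reads. Of the 23220 peaks with an average under 1 CPM (a log2 CPM under 0), 1 was called, 0.00431%. The called share was 0.0842% at a log2 CPM of 0 to 1, 0.494% at 1 to 2, 0.961% at 2 to 3 and 0.883% at 3 or more. Changes at sites with few reads were thus mostly not detectable at this depth.

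Genes are named below through 48 windows laid by hand over 55 genes and their flanks. No gene annotation of build mm9 was used here, so the window limits are approximate and rounded, taken from general knowledge of where these genes lie in that build. A window says where a peak lies, not which gene it serves, nor whether it is in an exon, an intron or a promoter. RefSeq's gene table, which is for another build, places all 55 genes on the same chromosomes and gives the same order along 9 of 9 chromosomes. The 48 windows hold 1334 tested peaks, of which 16 rose and 23 fell, 2.92% against 0.337% of all peaks. The windows were chosen with earlier results of these data known, so this excess is a description. Over all tested peaks 0.25% rose and 0.087% fell, and shares in single windows stand beside these. The summed level of a window's tested peaks had all day 7 libraries above all early ones in 12 of the 48 windows and below them in 2. In several of the 12 the lowest early sums were those of the libraries that stood apart.

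Heart muscle genes held most of the rises in these windows. Over 17 cardiomyocyte genes in 14 windows, 13 of 543 tested peaks rose and 2 fell, 2.76% of them, with a median log2 fold change of 0.34 against -0.0066 for all peaks. The median was above that of all peaks in 12 of 14 windows with TMM, RLE and library totals, in 10 with the level-dependent normalization and in 7 without the libraries that stood apart. Without those libraries 31 of the 543 peaks rose and 10 fell. With library totals 1 rose and 3 fell, and with the level-dependent normalization 10 rose and 3 fell.

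The window with the highest share of rises was that of Myh6 and Myh7, which encode the alpha and beta heavy chains of cardiac myosin, the motor of the heart's thick filament. Since the sort relies on the Myh6 promoter, its sequence is shown here from RefSeq (GRCm38.p6, chr14:54966558-54966857, minus strand, 300 bases, read 5′ to 3′). Capitals mark a match to a GATA motif (the letters AGATAA, or AGATAG, or TGATAA, or TGATAG, searched on both strands and here found on the reverse strand) and a match to the TATA box letters TATAAA.
Myh6 promoter: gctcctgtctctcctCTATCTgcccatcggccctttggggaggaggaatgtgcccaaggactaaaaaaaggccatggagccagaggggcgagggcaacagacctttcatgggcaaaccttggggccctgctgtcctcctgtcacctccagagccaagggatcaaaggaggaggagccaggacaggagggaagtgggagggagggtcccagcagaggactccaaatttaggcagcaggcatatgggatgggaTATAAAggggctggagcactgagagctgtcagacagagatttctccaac
The matches do not overlap. A GATA match stands in 29.8% of 32851 RefSeq promoter windows of this length, and TATAAA in 13.6%. The T-box letters AGGTGT (in 13.7% of these windows) and the MEF2 consensus (3.19%) have no match here. A match is a string of letters and not a measured binding site. The window of counts around Myh6 lies on mm9, so no position of this sequence was carried over to it, and reads from the copy of the promoter in the reporter cannot be told apart from reads of the gene itself.

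Of 24 tested peaks in the Myh6-Myh7 window, 6 rose and 0 fell (25%), all 6 within 55556085 to 55580442 of chromosome 14 and all without overlap. The summed level of the window was 104, 159 and 176 CPM at day 2, 112, 244 and 233 CPM at day 3, and 354, 314 and 324 CPM at day 7. All day 7 sums thus lay above all early ones, and the lowest early values were those of the libraries that stood apart. In the control fibroblasts the sum was 46.5 ± 7.37 CPM (SD, n = 3), below each early library. At days 14 and 21 it was 279 ± 86.0 and 357 ± 83.9 CPM.

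The peak at 55571939 to 55574039 was the largest rise among peaks named by rule (an average log2 CPM of at least 1 and no overlap). Its levels were 0.640, 0.770 and 1.02 CPM at day 2, 1.05, 2.14 and 1.04 CPM at day 3, and 4.03, 5.14 and 3.28 CPM at day 7. Fibroblasts stood at 0.713 ± 0.477 CPM (SD, n = 3). Day 3 replicate 2 was the highest early library, and all day 7 libraries were above it. The log2 fold change was 1.94 (SE 0.31, adjusted p 0.000435). The peak at 55578284 to 55580442 had 1.60, 1.77 and 1.02 CPM at day 2, 0.527, 1.39 and 2.09 CPM at day 3, and 5.22, 5.02 and 4.18 CPM at day 7, a log2 fold change of 1.62 (SE 0.28, adjusted p 0.000957). At days 2-3 its mean of 1.40 ± 0.558 CPM (SD, n = 6) lay below the fibroblast value of 2.23 ± 0.250 CPM (n = 3), and at day 21 it stood at 10.8 ± 3.02 CPM. The remaining rises of the window were between 1.12 and 2.08 on the log2 scale, and the one with the highest level, at 55556085 to 55559745, went from 7.57 ± 2.56 (n = 6) to 17.4 ± 1.94 CPM. With library totals 1 of the 6 calls was left, with the level-dependent normalization 5, and without the libraries that stood apart 8 peaks of the window rose.

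Ryr2 encodes the channel that releases calcium from the sarcoplasmic reticulum. Here the change was broad and shallow. Of 242 tested peaks, 3 rose and 0 fell (1.24%), yet 214 had a positive log2 fold change, and their median was 0.50. The summed level was 972, 937 and 814 CPM at day 2, 961, 852 and 812 CPM at day 3 and 1324, 1219.5 and 1109.9 CPM at day 7, so the groups did not overlap. Of the 3 peaks, the one with the smallest adjusted p, at 11928210 to 11931423 of chromosome 13, went from 4.45 ± 0.542 (SD, n = 6) to 9.26 ± 1.02 CPM (n = 3; log2 fold change 1.05, SE 0.23, adjusted p 0.0195). Another, at 11870451 to 11870882, rose by 1.84 from 0.462 ± 0.441 CPM with overlapping libraries. Without the libraries that stood apart 17 peaks of the window rose, and with library totals 0 did, although the window's median stayed 0.49 above that of all peaks (0.20 against -0.29).

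Next to it on chromosome 13, the window of Actn2, which encodes the alpha-actinin that anchors thin filaments at the Z-disc, held 3 rises among 32 peaks (9.38%) and 0 falls. The median of its peaks was 0.57, and the summed level was 128 ± 20.0 CPM (SD, n = 6) early and 185 ± 20.8 CPM (n = 3) at day 7 without overlap. The broad peak at 12355430 to 12360505 had 5.12, 4.93 and 8.15 CPM at day 2, 5.54, 8.58 and 11.4 CPM at day 3, and 19.2, 20.9 and 12.7 CPM at day 7 (log2 fold change 1.27, SE 0.26, adjusted p 0.00715). The groups did not overlap, although the lowest day 7 library was close to the highest early one. The other rises were at 12410295 to 12410699 (2.25, adjusted p 0.0492) and at 12431429 to 12433700 (1.11). The former had few reads, with 0.236 ± 0.228 CPM (n = 6) early and 1.06 ± 0.175 CPM (n = 3) at day 7. The window held 2 rises with RLE, the level-dependent normalization, limma voom or DESeq2, and 0 with library totals.

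In the window of Tcap, which encodes telethonin, a cap protein of titin at the Z-disc, 1 of 14 peaks rose (7.14%). This peak, at 98238474 to 98239857 of chromosome 11, was already measurable early, with 1.60, 1.69 and 2.04 CPM at day 2 and 1.05, 2.14 and 2.30 CPM at day 3, against 0.627 ± 0.458 CPM (SD, n = 3) in fibroblasts. At day 7 it had 5.48, 6.51 and 6.27 CPM (log2 fold change 1.67, SE 0.27, adjusted p 0.000435), with a wide gap between the groups. Its adjusted p was 0.0565 with library totals.

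**Figure D2:**
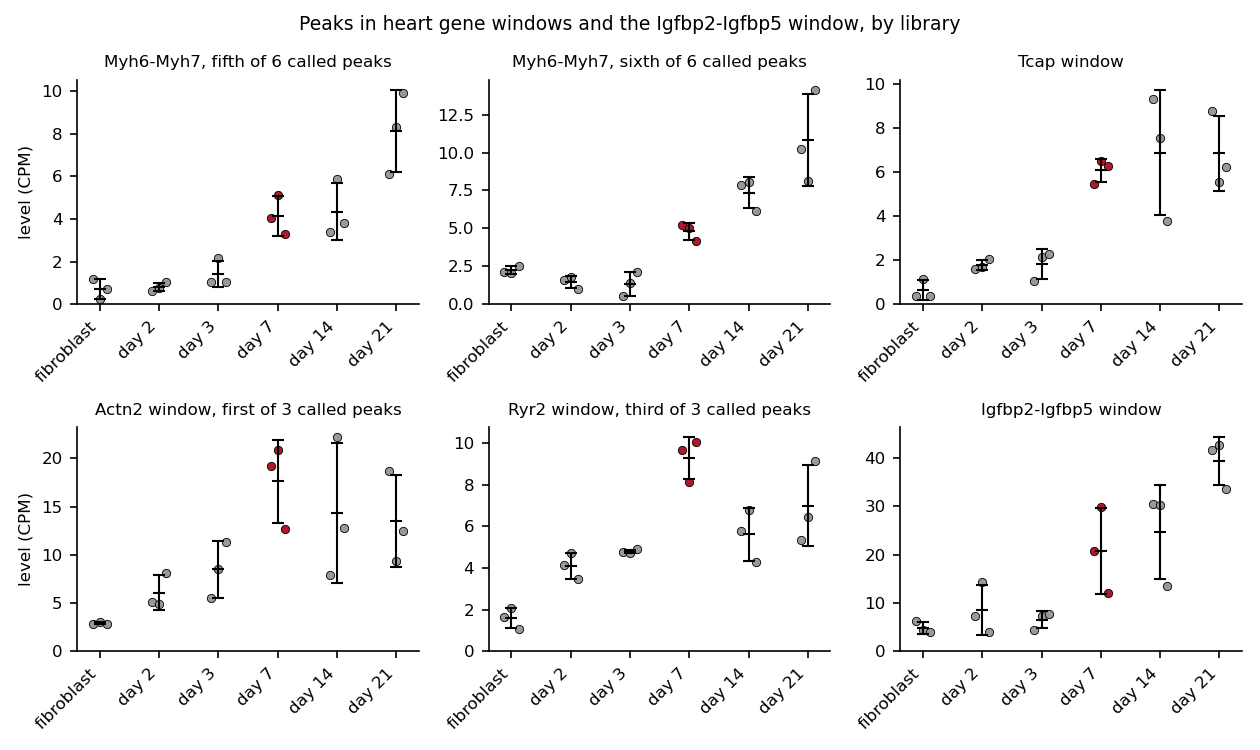
Levels (CPM, linear axes) of 6 called peaks in every library, by group, with day 7 in red, group means as short bars and whiskers of 1 SD (n = 3). In the Myh6-Myh7, Tcap, Actn2 and Ryr2 peaks every day 7 library is above every library of days 2 and 3, while in the Igfbp2-Igfbp5 peak 1 day 7 library at 12.0 CPM lies below 1 day 2 library at 14.3 CPM.

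Not all heart muscle windows moved this way. In the window of Ldb3, which encodes another Z-disc protein, 2 of 51 peaks fell (3.92%, where 0.087% of all peaks fell). In this window 0 rose, and 14 of 51 had a positive log2 fold change. The falls, neighbours at 35330952 to 35332220 and 35332574 to 35333847 of chromosome 14, had log2 fold changes of -1.69 (SE 0.34, adjusted p 0.00796) and -1.63 (SE 0.32, adjusted p 0.00558). The second had 4.16, 8.01 and 6.93 CPM at day 2, 1.58, 6.33 and 5.18 CPM at day 3 and 1.98, 1.37 and 1.99 CPM at day 7. Day 3 replicate 1, which stood apart, lay inside the day 7 range in both, and without it and day 2 replicate 1 there were 8 falls in the window. Relative to fibroblasts, at 0.229 ± 0.228 CPM (SD, n = 3), the second peak was still above control at day 7. In the windows of the troponins Tnnt2 and Tnni1 (45 peaks), Des and Speg (31), Myl4 (21), Dsp (22), Myl7 (16), Mb (15), Pln (14), Tnnc1 (9) and Gja1 (7), edgeR called 0 peaks. Their medians ran from -0.16 (Gja1) to 0.28 (Myl7). Among these, the summed level of the Gja1 window alone separated the days, at 33.0 ± 2.73 CPM (SD, n = 6) early and 36.7 ± 0.562 at day 7.

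The windows of Nkx2-5, Myocd and Hand1, transcription regulators of the heart, held 40 tested peaks, and 0 were called by edgeR, DESeq2 or limma voom (6 at an unadjusted p under 0.05 in edgeR). Their median log2 fold change was 0.11. The summed level of the 3 windows was 149 ± 20.2 CPM (SD, n = 6) at days 2-3 and 175 ± 10.1 CPM at day 7, and 87.4 ± 6.23 CPM in fibroblasts. The pooled sums of the days did not overlap, narrowly (166 against 168 CPM), while those of each single window did. The pooled difference between fibroblasts and days 2-3 was larger than that between days 2-3 and day 7. This held for Myocd (57.4, 112 and 129 CPM in fibroblasts, days 2-3 and day 7) and Hand1 (20.8, 26.0 and 29.6 CPM). For Nkx2-5 the later difference was the larger (9.21, 11.2 and 16.7 CPM).

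The strongest falls of the first week lay in the windows of Mef2c and Gata4, both delivered by retrovirus. Of 34 tested peaks in the Mef2c window 7 fell (20.6%), and of 46 in the Gata4 window 3 fell (6.52%), where 0.087% of all peaks fell. Their log2 fold changes ran from -3.62 to -1.24, and 0 peaks rose in either window. Beside that, the 27 other peaks of the Mef2c window had a median of -0.16 and the 43 others of the Gata4 window one of 0.42. The 43 summed to 549 ± 234 CPM (SD, n = 6) early and 484 ± 31.2 CPM at day 7, with overlap. Reads of integrated or residual viral sequence and reads of the endogenous gene's chromatin are not told apart by a count, and their part in these values was not tested. The count of falls was also 10 with RLE, library totals, the level-dependent normalization, DESeq2 and limma voom, and without the libraries that stood apart it was 11, with 1 rise.

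In the Mef2c window, the peak at 83764596 to 83765336 of chromosome 13 had 24.7, 37.2 and 13.4 CPM at day 2, 15.8, 14.9 and 5.01 CPM at day 3, and 2.24, 0.799 and 0.796 CPM at day 7 (log2 fold change -3.62, SE 0.41, adjusted p 1.42e-05). In fibroblasts it had 0.274, 0.231 and 0 CPM, so that the level was highest at day 2 and nearer to the control at day 7. The peaks at 83772366 to 83773128 (-3.57), 83795713 to 83796137 (-3.10), 83730819 to 83732353 (-2.78) and 83800334 to 83802523 (-2.70) followed the same course, and the others fell by 2.33 and 2.06. The sum over these 7 peaks was 343, 644 and 319 CPM at day 2, 220.2, 398 and 121 CPM at day 3, and 66.9, 37.3 and 42.2 CPM at day 7, against 15.4 ± 2.64 CPM (SD, n = 3) in fibroblasts. The sum over the 27 remaining peaks stood at 114 ± 9.97 CPM (n = 6) early, 110.0 ± 6.78 at day 7 and 111 ± 16.2 in fibroblasts, with overlapping libraries throughout.

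In the Gata4 window all 3 falls were neighbours, from 63819108 to 63825062 of chromosome 14. The middle one, at 63822054 to 63822711, had the smallest adjusted p of all peaks (7.54e-09). Its levels were 30.4, 59.7 and 39.1 CPM at day 2, 21.9, 47.3 and 17.4 CPM at day 3, and 5.81, 2.74 and 4.67 CPM at day 7, a log2 fold change of -2.98 (SE 0.31). In fibroblasts it stood at 0.745 ± 0.0669 CPM (SD, n = 3), and at days 14 and 21 at 2.48 ± 0.714 and 3.06 ± 1.01 CPM. The peak at 63819108 to 63820631 fell by 2.39 from a mean of 94.7 CPM, and the one at 63823062 to 63825062 fell by 1.24 from 36.7 CPM.

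A second group of falls lay in windows over replication-dependent histone genes on chromosome 13, which supply new histones while DNA is copied. There 7 of 73 tested peaks (9.59%) fell in the first cluster (Hist1h2bh and Hist1h1a) and 3 of 78 (3.85%) in the second (Hist1h1c and Hist1h1e). Over all tested peaks 0.087% fell. In the clusters 0 rose, and all 10 falls were without overlap. Unlike the peaks at the delivered factors, these stood near the fibroblast level at day 2. The median over the 10 peaks was 6.85 to 9.37 CPM in the fibroblast libraries, 8.76 to 9.85 at day 2, 5.15 to 7.12 at day 3 and 2.05 to 2.91 at day 7. The peak at 22028677 to 22029496 had 9.60, 10.2 and 8.15 CPM at day 2, 6.86, 5.36 and 5.64 CPM at day 3, and 1.25, 0.914 and 1.29 CPM at day 7 (log2 fold change -2.65, SE 0.32, adjusted p 4.13e-07). A larger one, at 22008739 to 22012376, had 37.8, 33.1 and 25.5 CPM at day 2, 19.5, 19.8 and 18.3 CPM at day 3 and 9.31, 12.0 and 12.3 CPM at day 7 (-1.15, SE 0.25, adjusted p 0.0192). In the second cluster the peak at 23589239 to 23593213 went from 21.3 ± 6.18 (SD, n = 6) to 8.27 ± 1.95 CPM (n = 3; -1.32, SE 0.26, adjusted p 0.00696).

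The falls were limited to some peaks of the clusters. The summed level of the first window was 884 ± 54.9 CPM early (SD, n = 6) and 917 ± 49.3 at day 7, and that of the second 904 ± 48.6 and 1014 ± 86.0 CPM, with overlap in both. Of the other proliferation genes, Top2a (4 peaks), Cdk1 (10) and Ccnb1 (3) had 0 calls in edgeR. The Top2a window, around the topoisomerase that dividing cells use to untangle chromosomes, had a sum of 25.8 ± 2.81 CPM early and 19.6 ± 1.47 at day 7 without overlap. The sum of the Ccnb1 window, around a mitotic cyclin, separated the other way, at 41.0 ± 11.2 and 56.1 ± 0.121 CPM. The libraries that stood apart had 32.3 and 22.4 CPM there, and the other early ones 45.2 to 50.6 CPM. The share of dividing cells was not measured, and its part was not tested.

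**Figure D3:**
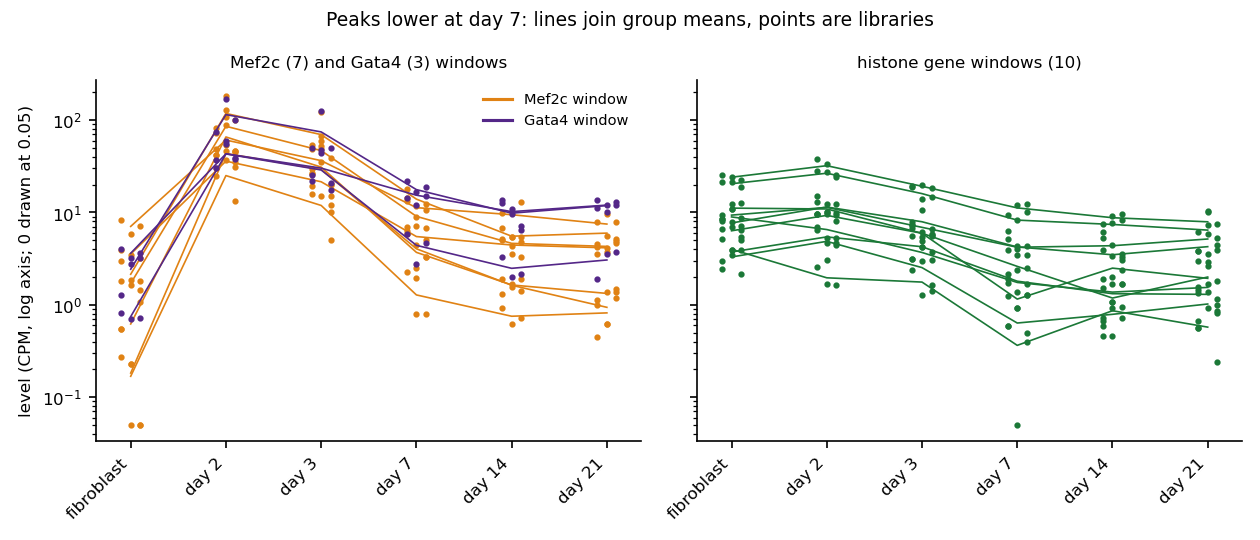
Levels (CPM on a log axis, with 0 drawn at 0.05) of the 10 falling peaks of the Mef2c and Gata4 windows on the left and the 10 of the histone gene windows on the right, with a point per library and lines through group means (n = 3). On the left the levels are higher at day 2 than in the fibroblasts sorted at day 7 and lower again in GMT cells at day 7. On the right the day 2 means lie on either side of the fibroblast means, and the day 7 means are below them.

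In the windows of fibroblast and matrix genes edgeR called no change. Over 14 such genes (239 tested peaks in 13 windows), among them Fn1, Timp3, Col1a1, Col3a1, Sparc and Dcn, which build or trim the extracellular matrix, and the fibroblast regulators Tcf21 and Prrx1, edgeR and limma voom called 0 peaks (39 at an unadjusted p under 0.05 in edgeR), while DESeq2 called 2 higher, both in the Timp3 window, and 1 lower, in the Fn1 window. The median log2 fold change was -0.14, with that of all peaks at -0.0066. Yet 122 of the 239 peaks were lower at days 14 and 21 than in fibroblasts and 13 were higher, where 12.7% of all peaks were lower and 15.1% higher. The summed level of the windows was 1617 ± 71.3 CPM (SD, n = 3) in fibroblasts. It was 851 ± 128 CPM (n = 6) at days 2-3 and 924 ± 31.1 CPM at day 7. The pooled days 2-3 level thus already lay well below the control. Fibroblasts and days 2-3 were furthest apart in the windows of Fn1 (448 against 129 CPM), Timp3 (362 against 133) and Col3a1-Col5a2 (212 against 101). These held 42, 25 and 27 of the 122 lower peaks. The Sparc (133 against 124 CPM) and Prrx1 (52.0 against 49.5 CPM) windows differed little. The Fn1 window, over the fibronectin gene, had the lowest median (-0.55), and 8 of its 49 peaks had a positive log2 fold change. This median was about as large as that of the Ryr2 window, in the other direction. Unlike the Ryr2 sums, the Fn1 sums overlapped, at 129 ± 30.1 CPM early (n = 6) and 114 ± 15.4 CPM at day 7. In the Fn1 window 1 peak fell with the level-dependent normalization, and 3 fell without the libraries that stood apart. The sums of the Timp3 window (133 ± 18.4 to 167 ± 4.83 CPM) and of the Twist1 window (38.1 ± 16.3 to 55.4 ± 2.06 CPM) separated the days upwards. In both windows the libraries that stood apart were the lowest early ones. They had 19.5 and 15.8 CPM in the Twist1 window, where the other early libraries had 42.8 to 52.6 CPM. Without the libraries that stood apart 2 of the 239 peaks rose and 4 fell.

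Targets and ligands of the pathways that the inhibitors block had 1 called rise among 82 peaks (1.22%, where 0.25% of all peaks rose) and 0 falls. It lay in the window of Igfbp2 and Igfbp5, genes for proteins that bind insulin-like growth factors, at 72900519 to 72904478 of chromosome 1. This peak had 7.36, 14.3 and 4.07 CPM at day 2, 4.48, 7.29 and 7.77 CPM at day 3, and 20.7, 29.8 and 12.0 CPM at day 7, with overlap (log2 fold change 1.41, SE 0.28, adjusted p 0.00715). It was not called with library totals, the level-dependent normalization or limma voom, or without the libraries that stood apart. The whole window nevertheless separated the days, with sums of 49.8 ± 12.7 CPM (SD, n = 6) and 87.4 ± 17.6 CPM (n = 3), and it went on to 128.0 ± 10.8 CPM at day 21. For the Wnt target Axin2, the ligands Tgfb2 and Tgfb3 and the matricellular gene Ccn2 (Ctgf), edgeR called 0 of 63 peaks in all, and the window medians ran from 0.018 to 0.36.

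In the windows of Runx1 and Runx2, 1 of 86 peaks fell (1.16%, where 0.087% of all peaks fell) and 0 rose. It lay in the window of Runx2, a regulator of bone cells, at 44903515 to 44905027 of chromosome 17, and went from 1.47 ± 0.484 (SD, n = 6) to 0.286 ± 0.0520 CPM (n = 3; -2.26, SE 0.53, adjusted p 0.0309). This peak was not called with DESeq2, limma voom or the level-dependent normalization. The sum of the Runx1 window, around a regulator of blood formation, separated the days in the other direction, at 153 ± 23.7 and 180 ± 5.92 CPM. The smooth muscle windows held 2 rises among 73 peaks (2.74%, where 0.25% of all peaks rose), both near Myh11, the smooth muscle myosin gene. The peak at 14264577 to 14266966 of chromosome 16 went from 2.39 ± 0.394 to 5.10 ± 0.921 CPM (1.08, SE 0.26, adjusted p 0.0387) without overlap, and the Myh11 window's sum from 75.9 ± 7.53 to 96.1 ± 5.06 CPM. Of the 2 Myh11 peaks, 1 was called with RLE, DESeq2 or limma voom, and 0 with library totals or the level-dependent normalization.

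Markers of cells that the sort could also hold were checked. For Ptprc, which marks leukocytes, and Pecam1, which marks endothelium, edgeR, DESeq2 and limma voom called 0 of 23 peaks (8 at an unadjusted p under 0.05 in edgeR). The Ptprc sum was 22.6 ± 4.87 CPM (SD, n = 6) early and 15.8 ± 2.88 CPM at day 7 with overlap. The Pecam1 sum was 51.6 ± 7.60 and 72.6 ± 6.87 CPM without overlap, as separated as the sums of some heart windows, and 39.9 ± 5.46 CPM in fibroblasts. The part of endothelial cells in the rises was not tested.

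**Figure D4:**
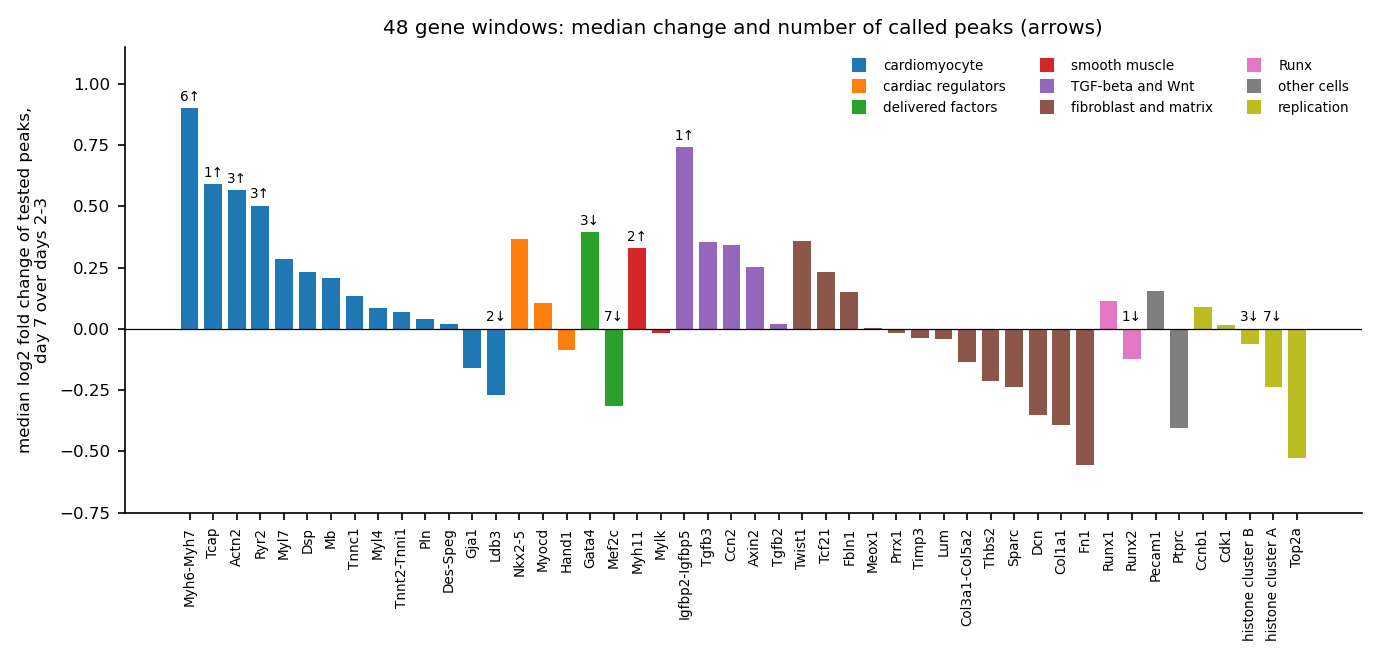
Bars give, for each of the 48 gene windows, the median log2 fold change (day 7 over days 2-3) of its tested peaks, coloured by gene list, and numbers with arrows give the peaks called higher or lower. The cardiomyocyte windows of Myh6-Myh7, Tcap, Actn2 and Ryr2 have medians of 0.50 or more, the Fn1 window has the lowest, and the falls of the Gata4 window stand beside a positive median.

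Outside the gene windows, the 8 other named rises are given by position. The most certain by adjusted p was at 44055546 to 44058291 of chromosome 11, with 7.68, 2.93 and 4.28 CPM at day 2, 11.3, 7.93 and 7.06 CPM at day 3 and 21.8, 23.3 and 14.8 CPM at day 7 (log2 fold change 1.69, SE 0.25, adjusted p 0.000103). Its fibroblast level was 2.57 ± 0.650 CPM (SD, n = 3), so days 2-3 lay between the control and day 7. The peak at 83602423 to 83604249 of chromosome 15 had 0.640, 2.93 and 2.04 CPM at day 2, 0.791, 3.75 and 2.05 CPM at day 3 and 6.07, 8.68 and 7.56 CPM at day 7 (1.69, SE 0.27, adjusted p 0.000435). It was also called against day 3 alone (adjusted p 0.0452).

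The narrow peak of 200 bases at 4876012 of chromosome 16 rose from 1.25 ± 1.08 (SD, n = 6) at days 2-3 to 5.46 ± 0.711 CPM (n = 3) at day 7, with fibroblasts in between at 3.37 ± 0.949 CPM (1.92, SE 0.32). The other named rises, with log2 fold changes of 1.66 to 1.73, were at 25666185 to 25668148 of chromosome 17, 27971331 to 27972962 of chromosome 14, 81593239 to 81595300 and 72228416 to 72229370 of chromosome 11 and 9231380 to 9232582 of chromosome 12. Their day 7 means lay between 2.86 and 7.75 CPM. Single libraries decided these 5 calls. Without day 7 replicate 3 the adjusted p was 0.27 at 25666185, 0.169 at 27971331 and 0.253 at 72228416. Without day 7 replicate 2 it was 0.0665 at 81593239 and 0.252 at 9231380. Without day 2 replicate 2 it was 0.0696 at 72228416 and 0.0534 at 9231380, and without day 2 replicate 3 it was 0.0545 at the latter. Against day 3 alone, 9 of the 10 named rises were not called. Of the named falls, 1 lay outside the gene windows, at 103825399 to 103825748 of chromosome 11, from 3.70 ± 1.10 to 0.670 ± 0.202 CPM (-2.36, SE 0.37, adjusted p 0.000232).

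Called peaks with a neighbour called the same way within 20000 bases numbered 67 of the 362 rises and 24 of the 126 falls. Runs of 3 or more were found at 6 places for rises and 4 for falls. The longest rising run was the one of 6 in the Myh6-Myh7 window, where 13 peaks were tested. The other 5 had 3 called peaks each, and lay on chromosome 11 (81584474 to 81609350 and 120395319 to 120404134), chromosome 12 (84232096 to 84265506), chromosome 15 (58017388 to 58043524) and chromosome 16 (96424132 to 96445389). The falling runs were the 6 of 10 tested peaks at Mef2c, 6 of 16 in the first histone cluster, 3 of 3 at Gata4 and 3 of 6 at 21339715 to 21360882 of chromosome 13, outside the windows drawn.

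Chromosome 13 held 28.6% of the falls (36 of 126) and 10.7% of tested peaks, and 10.8% of the rises. Of these 36, 7 lay in the Mef2c window, 10 in the histone windows and 19 elsewhere. Summed over fixed windows of 100000 bases, 3 of 10648 passed the test (0.0282%), 1 upwards (0.00939%) and 2 downwards (0.0188%). The 2 that fell are neighbours over the Mef2c peaks, 83700001 to 83800000 (331 ± 136 to 100.2 ± 15.6 CPM, log2 fold change -1.68, adjusted p 0.000842) and 83800001 to 83900000 (140.0 ± 59.1 to 61.3 ± 6.77 CPM, -1.17, adjusted p 0.0336). The 1 that rose, 101700001 to 101800000 of chromosome 15, went from 44.0 ± 6.66 (SD, n = 6) to 70.4 ± 5.17 CPM (n = 3; 0.67, adjusted p 0.0257). Here too single libraries set the count. It was 0 without day 7 replicate 2 (1296 at an unadjusted p under 0.05 in edgeR), 1 without replicate 1 or 3 of day 7 or replicate 2 of day 2, and 5 without day 2 replicate 1. Leaving out replicate 1, 2 or 3 of day 3 gave 8, 6 or 5.

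Split by early day, more peaks passed against day 2 than against day 3. Day 7 against day 2 alone gave 644 calls (0.445% of peaks), 361 higher (0.249%) and 283 lower (0.195%). Day 7 against day 3 alone gave 12 (0.00829%), 2 higher (0.00138%) and 10 lower (0.00691%). The difference between these counts was not tested. These comparisons share the day 7 libraries and are set side by side only. Between days 2 and 3, edgeR and DESeq2 called 0 peaks (5247 at an unadjusted p under 0.05 in edgeR). Over the 362 rises the median level was 2.88, 2.77 and 2.65 CPM in the day 2 libraries, 3.16, 4.13 and 3.97 CPM in those of day 3, and 6.73, 7.71 and 8.21 CPM in those of day 7. Over the 126 falls it was 5.44, 5.74 and 6.11 CPM at day 2, 4.88, 3.91 and 3.93 CPM at day 3, and 2.01, 1.60 and 1.74 CPM at day 7. In both sets day 3 thus lay between days 2 and 7, although the peaks were chosen for their difference at day 7 and no peak was called between days 2 and 3.

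The same peaks were then read in libraries that took no part in the comparison, days 14 and 21 against fibroblasts, although all 18 libraries share one estimate of spread. Of the 362 rises, 302 (83.4%) were higher at days 14 and 21 than in fibroblasts, 2 were lower and 58 were not called. Among all tested peaks 27.8% were called in that comparison, 15.1% higher and 12.7% lower. Among the 61042 peaks with an average log2 CPM of 1 or more, where most of the rises lie, 26.7% were higher. The median level of the risers was 1.44 to 1.82 CPM in the fibroblast libraries and 5.54 to 7.80 CPM in those of days 14 and 21, so that the level of day 7 was about that of the later weeks. The mean of the fibroblasts was below that of days 2-3 for 274 of the 362 and less than 50% of it for 163.

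In the same reading 48 of the 126 falls (38.1%) were lower at days 14 and 21 than in fibroblasts, where 12.7% of all peaks were lower. Another 20 (15.9%) were higher, which is near the 15.1% of all peaks, and 58 were not called. With library totals 28 (22.2%) were lower, where 4.74% of all peaks were lower, and 40 (31.7%) were higher, where 27.6% of all peaks were higher. All 10 falls of the histone windows were among the lower ones, and of the 10 at the delivered factors 6 were higher and 0 lower. Of the 106 others, 38 (35.8%) were lower and 14 (13.2%) higher, the latter again near the share of all peaks. The median level of the 106 was at most 2.16 CPM in the fibroblast libraries, 4.64 to 5.40 CPM at day 2, 3.32 to 4.48 CPM at day 3, 1.37 to 1.91 CPM at day 7 and 1.45 to 1.87 CPM later. For this largest subset the median was thus highest at day 2 and close to that of the control by day 7.

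**Figure D5:**
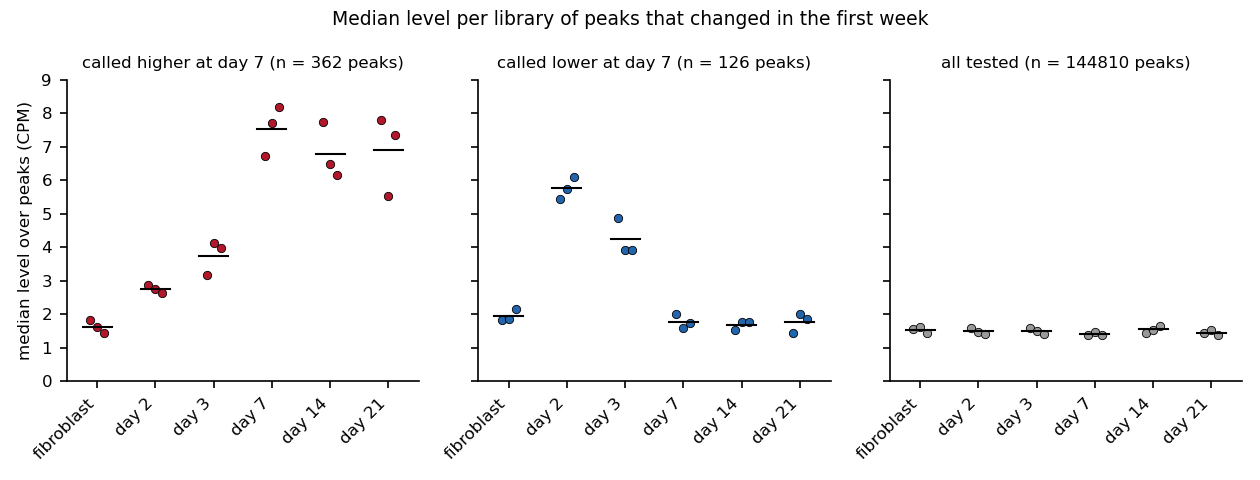
Median level (CPM) over the 362 peaks called higher, the 126 called lower and all 144810 tested peaks, with a point per library and a bar at the mean of the 3 libraries of each group. The peaks called higher go from 1.44 to 1.82 CPM in fibroblasts to 5.54 CPM or more in every library from day 7 on, those called lower are raised at days 2 and 3 only, and the median over all peaks stays between 1.39 and 1.66 CPM in every library.

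Between days 14 and 21 edgeR and DESeq2 called 0 peaks (4757 at an unadjusted p under 0.05 in edgeR). Against the mean of days 2, 3 and 7, which holds the libraries of the comparison itself, days 14 and 21 were higher at 188 of the 362 rises and lower at 76 of the 126 falls, where 3.74% of all peaks were called, 1.4% higher and 2.34% lower. Fibroblasts, set against the same mean, were lower at 220 of the rises and higher at 10, where 30.2% of all peaks were called, 16.2% lower and 14% higher. They were lower at 59 of the falls and higher at 21.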

How the data were processed

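ATAC-seq was read from 1 deposited table of whole-number counts of reads per region, with 1393120 complete regions and 18 library columns for 36 labelled samples. Per the submitters' processing notes, the authors used Bowtie2, Picard, MACS2, edgeR and build mm9, with no settings or versions. The last line of the table is incomplete and was left out.

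Peaks were kept by filterByExpr (minimum count 10, minimum total 15), which left 144810, 10.4% of regions. All 18 libraries in 6 groups were fitted with edgeR's quasi-likelihood model (edgeR 4.0.16, limma 3.58.1, R 4.3.3) with TMM factors on whole-library totals, no covariate and 12 residual degrees of freedom. The contrast was day 7 minus the mean of days 2 and 3, two-sided, with Benjamini-Hochberg adjustment over all peaks. SE is approximate, the size of the log2 fold change divided by the square root of the F statistic. The biological coefficient of variation was 23.8%, and depth limits what low peaks can show. P-values measure the spread between libraries labelled as biological replicates. Scripts were tested on simulated data, in which 50 randomly picked peaks were changed by each of several folds. Of each 50, 1 was called at 1.5-fold, 5 at 2-fold, 33 at 4-fold and 47 at 8-fold. Smaller changes were thus mostly missed there.

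Peaks named by position are the 10 largest rises and 10 largest falls among called peaks whose log2 CPM averaged 1 or more and whose libraries did not overlap. Peaks described in gene windows come from the lists. The comparison, gene lists and windows were chosen with earlier results of these data known. Window positions carry no mm9 annotation, and no peak sequence was read, since no genome of that build was used here. Promoter letters are RefSeq's. Alternatives were other scalings (RLE, library totals, loess on level), filters, thresholds, limma voom, DESeq2 1.42.0, other sets of libraries, a replicate block and each library left out.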

Additional observations from a re-analysis of the deposited data

Results flagged for a closer look

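Among 23 early sides of described peaks (6 libraries each), 2 held a lone high library, its gap to the next divided by the range being above the critical value of 0.625. Chance alone gives such a library in about 1 of 20 groups. In the Myh6-Myh7 window, the peak at 55571939 of chromosome 14 had 2.14 CPM in day 3 replicate 2 with the next early library at 1.05 CPM (ratio 0.724). The peak at 25666185 of chromosome 17 had 2.13 CPM in day 3 replicate 3, with a ratio of 0.729. Both values lay below every day 7 library.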

How the results depend on the processing

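The count of called peaks (488) stayed within 1.5 times with RLE (431), a minimum count of 30 (391), the level-dependent normalization (353), limma voom (418), DESeq2 (600), days 2 and 3 as 1 group (346) and day 2 alone (644). It was 94 with library totals, 15 with no filter, 122 at an adjusted p under 0.01, 84 with only the 9 libraries, 251 with the 15 GMT libraries, 12 against day 3 alone and 1473 without the libraries that stood apart, which kept 477 of the 488. Leaving out 1 library gave 84 to 760. Called windows of 100000 bases (3) became 24 with a minimum count of 30, 1 with no filter, 1 with limma voom, 83 with DESeq2, 0 with only the 9 libraries (1615 at an unadjusted p under 0.05), 1 with the 15 GMT libraries, 6 against day 2 alone, 0 against day 3 alone (1142 at an unadjusted p under 0.05) and 27 without the libraries that stood apart, with 0 to 8 when 1 library was left out. Fewer libraries or more regions tested are part of several of these settings; beyond that the cause was not tested. The 302 rises that were higher later than in fibroblasts became 267 to 292, and the 48 falls that were lower 40 to 47, when 1 fibroblast library was left out. With library totals these counts were 331, where 27.6% of all peaks were higher, and 28, where 4.74% were lower (both alternatives chosen after seeing the data). Of 475 values of named peaks under alternatives, 436 kept their call, 39 lost it and 0 reversed. A peak with no adjusted p in a setting was left out there. Losses were mostly among the rises, with up to 8 of 23 settings at 9231380 of chromosome 12. The named falls lost at most 2 of 24, at 22063436 of chromosome 13.

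With the replicate block 463 peaks were called, 414 of them among the 488, and 4 windows. Same-numbered libraries of day 7 correlated with those of day 2 at -0.058, 0.032 and -0.015 in their deviations from the group means. Same-numbered libraries of days 2 and 3 correlated at 0.321, 0.214 and 0.098, and replicate 1 of both days stood apart. Between days 2 and 3, pairs with unlike numbers ran from -0.294 to 0.220. Whether libraries with the same number share an origin is not labelled, and these values cannot show it.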
